A study of Mus musculus with 9 samples.

Results

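The mRNAs of the G1 cyclins and of the CDK inhibitors that oppose them were examined in mouse embryonic stem cells (mESC). The 10 genes were chosen by name for their role in the passage from G1 to S phase. They are the D cyclins *Ccnd1*, *Ccnd2* and *Ccnd3*, the E cyclins *Ccne1* and *Ccne2*, the Kip inhibitor *Cdkn1b*, and the INK4 genes *Cdkn2a*, *Cdkn2b*, *Cdkn2c* and *Cdkn2d*. All 10 were among the 29069 genes of the deposited table and among the 18156 genes with a mean over 5 normalised counts that were tested. After 24 h with a nitric oxide donor, *Ccnd2* and *Cdkn2b* were higher and *Ccnd1* was lower than in ground-state cells. Against the same serum medium without the donor, *Cdkn2b* was higher and *Ccnd1* and *Ccne1* were lower. Of these calls, only that of *Ccnd2* was kept in all 22 alternative fits, and those against the serum medium were all lost when 1 donor sample was left out. None of the 10 genes passed the test between the serum medium and the ground state.

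D3 cells, an established mESC line that had been adapted to culture without feeders, were used at low passage. Each of 3 media was represented by 3 samples collected after 24 h. Ground-state medium (GS) was serum-free, with the MEK inhibitor PD0325901 (1 μM), the GSK-3 inhibitor CHIR99021 (3 μM) and LIF (20 ng/mL). DM held 10% fetal bovine serum and lacked both inhibitors and LIF, and NO was DM with 250 μM DETA/NO, which releases nitric oxide slowly. GS and DM thus differed in basal medium, serum, inhibitors and LIF together, since only DM and NO were based on DMEM. DM and NO differed in the donor alone, and all cells came from a single line.

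D cyclins activate CDK4 and CDK6, and E cyclins activate CDK2. These kinases phosphorylate the retinoblastoma family of pocket proteins, which then release E2F transcription factors and allow the genes of DNA replication to be transcribed. INK4 proteins bind CDK4 and CDK6, whereas the Kip protein p27, encoded by *Cdkn1b*, binds cyclin and kinase together. Embryonic stem cells are known for a short G1 phase and for abundant cyclin E, with D cyclins at a lower level than in most dividing cells. Transcription of D cyclin genes commonly follows MEK and ERK signalling.

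Values are read counts per gene after scaling by each library's size factor and rounding, here called normalised counts. Totals lay between 18290445 and 20508679, and the reads assigned to genes were estimated at 14300000 to 27100000 per sample, so that 1 read was worth 0.70 to 1.32 normalised counts. Differences were tested with limma on log2(normalised count + 1) over all 18156 genes. A gene was called when its Benjamini-Hochberg adjusted p-value was under 0.05, and fold changes on this scale understate those of low genes. NO replicate 2 stood apart from the other samples, with a first principal component of 131.2 against 25.9 and 67.1 in NO replicates 1 and 3 and negative values in GS and DM, and each called result of the 10 genes is given with and without it. Of the markers that define mESC, *Pou5f1*, *Nanog* and *Sox2* were abundant in all 9 samples, and the sum over 10 pluripotency markers was 103185 to 106723 in GS, 78892 to 82867 in DM, and 86009, 55982 and 83914 in NO replicates 1, 2 and 3. The sum over 6 markers of two-cell-like cells was 36 to 50 in GS, 45 to 58 in DM, and 117, 863 and 259 in NO. Of these markers, 6 of 6 were called higher in NO vs GS, beside 13.4% of all tested genes, and 3 of 6 vs DM, beside 9.01%. *Tcstv1* was at 0 to 2 in all samples but NO replicates 2 and 3, where it had 42 and 10. The sum over 8 trophoblast markers was 1285 to 1357 in GS, 811 to 1025 in DM, and 1230, 2719 and 1681 in NO. In NO vs DM 4 of 8 were higher, beside 9.01% of all tested genes, and in NO vs GS 3 of 8 were, beside 13.4%. *Cdx2* was called lower in both DM and NO than in GS, with 46 to 75 normalised counts in GS and 0 to 14 in DM and NO. In bulk RNA, fewer cells of a type and less RNA per cell cannot be told apart.

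Levels of different genes were compared only per kb of exon. *Ccne1* was the highest of the 10 genes in every medium, with 1253 normalised counts per kb in GS (± 68 SD, n = 3), 1861 in DM (± 264) and 1105 in NO (± 411). By its mean over all samples it ranked at percentile 94.6 of the tested genes. *Ccnd1* came second, at 598.6 ± 75.1, 586.7 ± 30.1 and 400.5 ± 68.3 per kb in GS, DM and NO. Next in order were *Ccnd3*, *Cdkn2a*, *Cdkn1b* and *Cdkn2d* in each of the 3 media. *Ccnd2* was the lowest, with 2.87 ± 0.531, 5.739 ± 0.281 and 7.759 ± 2.32 per kb, at percentile 11.3. In GS, *Ccnd3* and *Cdkn2a* overlapped between samples, as did *Cdkn2d* and *Ccne2*, and the other neighbours in the order did not. In DM and NO the samples of *Ccnd1* and *Ccnd3* overlapped. The order of these 2 genes also rested on the length used, because *Ccnd3* has 21 annotated transcripts: the ratio of *Ccnd3* to *Ccnd1* was 0.598, 0.796 and 0.711 in GS, DM and NO over all annotated exons, and 1.08, 1.44 and 1.29 over the longest transcript. With annotated exons, *Cdkn2b* lay eighth in GS (42.21 ± 8.64 per kb) and DM (39.33 ± 4.9) and seventh in NO (121.8 ± 66.2), where it overlapped *Ccne2* at 77.16 ± 14.3.

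In DM vs GS, 0 of the 10 genes were higher and 0 were lower, where 4.37% of all tested genes were higher and 2.32% were lower. At an unadjusted p under 0.05, 3 of the 10 passed, namely *Ccnd2*, *Ccne1* and *Ccne2*, where 19.9% of all tested genes did. At that unadjusted threshold 4 of the 10 passed in NO vs GS, beside 34.6% of all tested genes, and 5 of the 10 did in NO vs DM, beside 31.3%. In NO vs GS, 2 of 10 were higher, beside 13.4% of all tested genes, and 1 was lower, beside 6.64%. Both genes that were higher were also past a 2-fold change, which 10.1% of all tested genes passed in that direction. In NO vs DM, 1 of 10 was higher, beside 9.01%, and 2 were lower, beside 5.24%. The gene that was higher, *Cdkn2b*, was past a 2-fold change, as were 6.78% of all genes. The median log2 fold change of the 10 genes was 0.09, -0.22 and -0.22 in DM vs GS, NO vs GS and NO vs DM, where that of all tested genes was 0.00, -0.02 and 0.00. Without NO replicate 2 the number called was 2, 1 and 0 in the same order. In that fit 1209 of all tested genes were higher and 713 lower in DM vs GS, against 794 and 421 in the main fit. In NO vs GS they were 1724 and 718 against 2435 and 1205, and in NO vs DM 866 and 463 against 1636 and 951. NO vs GS and NO vs DM share the NO samples, and DM vs GS and NO vs DM share the DM samples. Media without overlap between their samples were common. In DM vs GS 2 of the 10 genes were higher and 1 lower without overlap, beside 16.2% and 13.5% of all tested genes. In NO vs GS 2 were higher and 2 lower in this way, beside 20.9% and 18.3%. In NO vs DM 2 were higher and 4 lower, beside 18.1% and 15.3%.

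**Figure D1:**
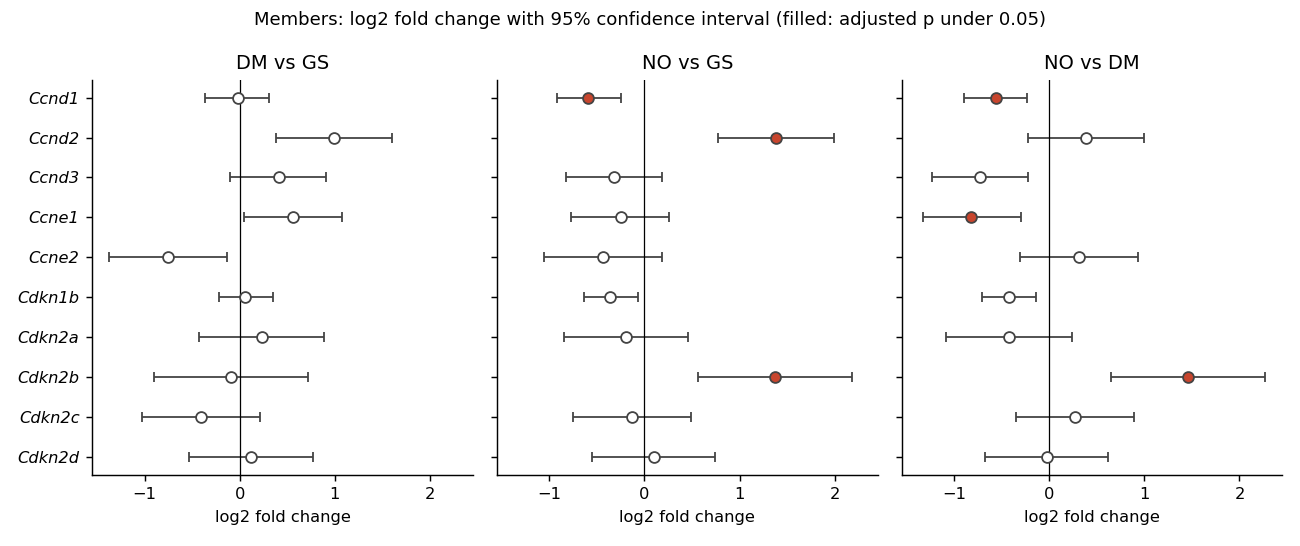
Log2 fold change of the 10 genes (x axis) in DM vs GS, NO vs GS and NO vs DM (panels), with the 95% confidence interval from limma as bars; filled points have an adjusted p-value under 0.05. No point is filled in DM vs GS, and each comparison of NO has 3 filled points.

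*Ccnd1* encodes cyclin D1, a regulatory partner of CDK4 and CDK6. It lies on the minus strand of chr7:144929931-144939925 (GRCm38), and exons of it overlap *LTO1* on the other strand. Its normalised counts were 2574, 3224 and 2658 in GS replicates 1, 2 and 3, 2663, 2701 and 2925 in DM, and 1991, 1525 and 2142 in NO. The GS and DM samples overlapped, and all 3 NO samples lay below all of them. *Ccnd1* fell in NO, by 1.5-fold vs GS (log2 fold change -0.59 ± 0.15 SE, adjusted p = 0.02 by limma) and by 1.48-fold vs DM (-0.56 ± 0.15, adjusted p = 0.032). In DM vs GS the log2 fold change was -0.02, with a 95% confidence interval from -0.36 to 0.31. Without NO replicate 2, the lowest sample, the log2 fold change was -0.44 vs GS (adjusted p = 0.052) and -0.42 vs DM (adjusted p = 0.0878). The call vs GS was also lost without GS replicate 2 (adjusted p = 0.0929), and that vs DM without any one of the DM replicates (adjusted p up to 0.0816). Over 22 alternatives the adjusted p was 0.00986 to 0.0929 vs GS and 0.0213 to 0.0878 vs DM. *LTO1* ranged from 308 to 476 over the 9 samples, with 365 to 476 in GS, 308 to 404 in DM and 344 to 401 in NO.

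*Ccnd2*, for cyclin D2, was far lower per length than the other D cyclins. The gene is on the minus strand of chr6:127125162-127152193 and shares exon sequence with *9330179D12Rik* and *Gm43126* on the other strand, of which *9330179D12Rik* had 0 to 2 normalised counts in every sample. *Ccnd2* had 32, 27 and 22 normalised counts in GS replicates 1, 2 and 3, 55, 51 and 56 in DM, and 58, 98 and 63 in NO. All samples of each medium lay above those of the medium before. The gene rose 2.6-fold in NO vs GS (log2 fold change 1.38 ± 0.28, adjusted p = 0.00627), and this call held in all 22 alternatives, with an adjusted p of 0.00375 to 0.0297. Without NO replicate 2, which had the highest value, it was 1.15 (adjusted p = 0.0172). In DM vs GS the difference was 1.98-fold and did not pass (0.99 ± 0.28, adjusted p = 0.0594). It did pass in a fit without NO replicate 2 (adjusted p = 0.0242), which leaves the fold change as it was, and the adjusted p ranged from 0.0242 to 0.209 over the alternatives. In NO vs DM the log2 fold change was 0.39, with an interval from -0.22 to 1.00 (adjusted p = 0.368).

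*Ccnd3*, for cyclin D3, spans chr17:47505051-47599691 on the plus strand and overlaps exons of *Bysl* on the other strand. Its normalised counts were 3625, 3335 and 2397 in GS replicates 1, 2 and 3, 3918, 3460 and 4972 in DM, and 2577, 1783 and 3242 in NO. Every NO sample lay below every DM sample, while the GS samples overlapped both. The log2 fold change in NO vs DM was -0.73 ± 0.23, and it did not pass (adjusted p = 0.0557). The highest sample was DM replicate 3, in which GC-rich genes read high: the mean deviation of the 20% of genes richest in GC minus that of the 20% poorest was 0.56 log2 units there, against -0.63 in GS replicate 3 and -0.20 to 0.26 in the other 7. With a correction for GC content the SD of *Ccnd3* in log2 units went from 0.32 to 0.2 in GS, from 0.27 to 0.15 in DM and from 0.43 to 0.45 in NO. The correction did not narrow every gene: the SD of *Ccnd2* and *Ccne1* rose in every medium, and that of *Cdkn2c* in GS went from 0.06 to 0.18. With it, NO vs DM of *Ccnd3* passed (adjusted p = 0.0322). It also passed without NO replicate 3 (log2 fold change -0.92, adjusted p = 0.0444), whereas without NO replicate 2 it was -0.49 (adjusted p = 0.178), in a range of 0.0287 to 0.178 over the alternatives. *Bysl*, which shares exon sequence, had 1977 to 2855 normalised counts in DM and 1174 to 1600 in NO, and because use of the strand in counting is not stated, its part in the *Ccnd3* value was not tested.

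**Figure D2:**
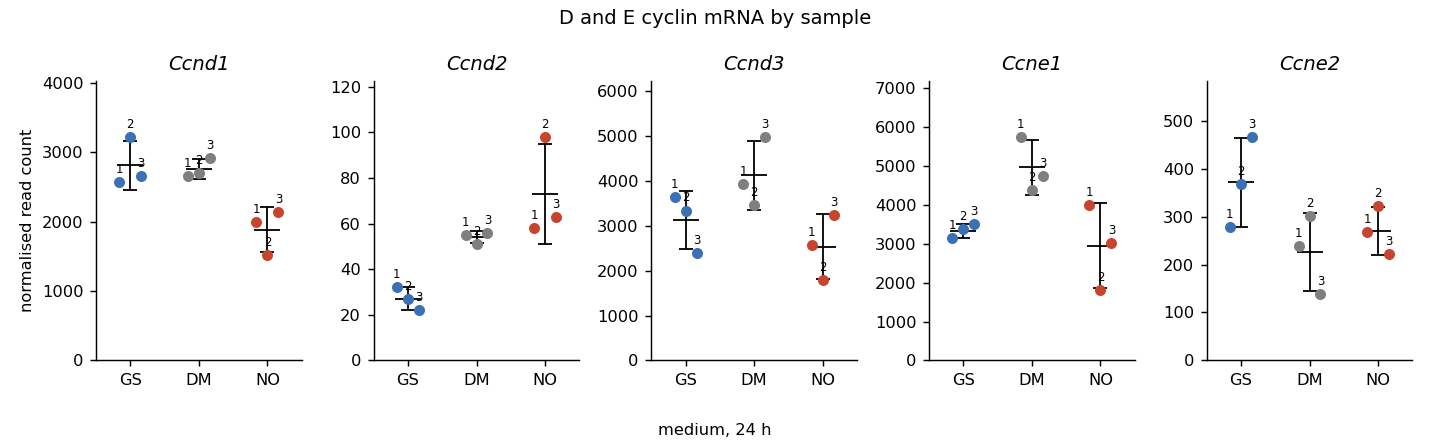
Normalised read count (y axis, linear from 0) of the D and E cyclin genes in each medium (x axis); points are single samples with their replicate number, and bars give the mean ± SD of 3. *Ccnd1* in NO lies between 1525 and 2142, under all GS and DM samples, and *Ccnd2* rises from 22 to 32 in GS to 58 to 98 in NO.

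Summed per length, the D cyclins averaged 956.9 ± 114 normalised counts per kb in GS (SD, n = 3), and the mean was 1062 ± 117 in DM and 697 ± 148 in NO. In NO replicates 1, 2 and 3 the sum was 722.6, 537.5 and 831.0, and all 3 lay under the lowest value of the other media, 840.0 in GS replicate 3. This separation rested on lengths over all annotated exons. Over the longest transcripts the sum of NO replicate 3 lay above that of GS replicate 3. *Ccnd2* made up 0.269 to 0.353% of that sum in GS, 0.499 to 0.574% in DM and 0.806 to 1.94% in NO. The ratio of *Ccnd1* to *Ccnd2* per kb was 161 to 241 in GS, 96.7 to 106 in DM and 31.1 to 68.6 in NO.

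*Ccne1* encodes cyclin E1, which activates CDK2 at the entry into S phase. It lies on chr7:38097984-38107534, minus strand, and no other exon overlaps it. *Ccne1* had 3138, 3372 and 3494 normalised counts in GS replicates 1, 2 and 3, 5739, 4386 and 4739 in DM, and 3993, 1811 and 3019 in NO. The DM samples lay above all of GS and NO, and the NO samples lay on both sides of GS. *Ccne1* fell 1.76-fold in NO vs DM (log2 fold change -0.82 ± 0.24, adjusted p = 0.0402). This call was kept in 8 of 22 alternatives and was lost without each of GS replicates 1 to 3, DM replicates 1 to 3, and NO replicates 2 and 3 (adjusted p = 0.0607 to 0.128). Without NO replicate 2 the log2 fold change was -0.50 (adjusted p = 0.0828, within 0.00381 to 0.128 over all alternatives). In DM vs GS it was 0.56 ± 0.24 and did not pass (adjusted p = 0.204), although it passed without NO replicate 2 (adjusted p = 0.027) and ranged from 0.0263 to 0.405. In NO vs GS it was -0.25, with an interval from -0.77 to 0.26, and 0.06 without NO replicate 2.

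*Ccne2*, for cyclin E2, lies on chr4:11191351-11204779, plus strand, and overlaps exons of *Ints8* on the other strand. It had 279, 368 and 466 normalised counts in GS replicates 1, 2 and 3, 239, 301 and 139 in DM, and 267, 321 and 221 in NO. The media overlapped in every comparison. Its log2 fold changes were -0.75 ± 0.28 in DM vs GS (adjusted p = 0.159), -0.44 ± 0.28 in NO vs GS (adjusted p = 0.291) and 0.31 ± 0.28 in NO vs DM (adjusted p = 0.497). With a GC content of 36.3% its transcript was the poorest in GC of the 10, and its lowest sample, DM replicate 3, and its highest, GS replicate 3, were those with the strongest GC tilt. After the GC correction, which was chosen after seeing the data, its SD went from 0.57 to 0.27 log2 units in DM and from 0.37 to 0.12 in GS. The part of GC content in this spread, and in that of *Ccnd3*, *Cdkn2a* and *Cdkn2d*, was not tested. The ratio of *Ccne1* to *Ccne2* per kb was 9.84 to 14.8 in GS, 19.1 to 44.8 in DM and 7.41 to 19.6 in NO.

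*Cdkn1b* encodes p27, which inhibits cyclin E with CDK2. On chr6:134920401-134925513, plus strand, it had 879, 941 and 978 normalised counts in GS replicates 1, 2 and 3, 964, 1093 and 875 in DM, and 699, 718 and 764 in NO. The 3 NO samples were the 3 lowest, and NO replicate 2 was not apart from the other two. The log2 fold change was -0.42 ± 0.13 in NO vs DM (adjusted p = 0.0519) and -0.36 ± 0.13 in NO vs GS (adjusted p = 0.0735), so that neither passed. NO vs DM passed with the GC correction (-0.47, adjusted p = 0.0197) and without DM replicate 3 (-0.50, adjusted p = 0.0493), and the adjusted p was 0.0197 to 0.169 over the alternatives. In DM vs GS it was 0.06, with an interval from -0.22 to 0.35. This was the narrowest interval of the 10 genes.

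The INK4 genes *Cdkn2a* and *Cdkn2b* are neighbours on the minus strand of chromosome 4, *Cdkn2a* at chr4:89274471-89294653 and *Cdkn2b* at chr4:89306299-89311039, with 11.6 kb between them. *Cdkn2b* encodes p15. *Cdkn2a* encodes both p16 and, from an upstream first exon in another reading frame, ARF, which stabilises p53. The row of *Cdkn2a* sums the reads of both and they cannot be told apart here. The promoters of the pair are shown because *Cdkn2b* was called in both NO comparisons and its neighbour in neither (250 bases before to 50 bases after the start site, GRCm38.p6, from the RefSeq promoter table; minus strand, 5′ to 3′). Capitals mark matches to the motifs named below. The *Cdkn2b* window is chr4:89310983-89311282, the upstream *Cdkn2a* window (1) is chr4:89294570-89294869, and the downstream *Cdkn2a* window (2) is chr4:89282143-89282442.
Cdkn2b: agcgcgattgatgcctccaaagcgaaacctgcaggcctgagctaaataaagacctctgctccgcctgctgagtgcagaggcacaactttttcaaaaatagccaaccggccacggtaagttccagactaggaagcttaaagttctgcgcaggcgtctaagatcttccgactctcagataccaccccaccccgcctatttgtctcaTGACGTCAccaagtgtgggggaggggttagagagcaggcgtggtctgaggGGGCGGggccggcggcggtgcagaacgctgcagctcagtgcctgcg
Cdkn2a (1): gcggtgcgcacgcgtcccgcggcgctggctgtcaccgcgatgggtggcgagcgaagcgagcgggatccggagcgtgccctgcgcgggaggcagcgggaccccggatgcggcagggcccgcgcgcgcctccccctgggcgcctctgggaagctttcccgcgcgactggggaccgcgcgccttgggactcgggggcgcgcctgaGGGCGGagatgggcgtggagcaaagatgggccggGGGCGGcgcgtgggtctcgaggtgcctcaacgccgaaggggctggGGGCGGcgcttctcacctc
Cdkn2a (2): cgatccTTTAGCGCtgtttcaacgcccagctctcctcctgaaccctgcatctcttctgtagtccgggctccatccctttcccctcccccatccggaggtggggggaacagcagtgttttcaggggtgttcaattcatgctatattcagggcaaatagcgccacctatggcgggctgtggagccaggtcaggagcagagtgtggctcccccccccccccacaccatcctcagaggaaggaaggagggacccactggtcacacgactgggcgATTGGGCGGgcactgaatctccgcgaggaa

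Both strands of each window were searched for 8 motifs, given here by their letters with the share of all 32851 promoters of the same length that hold a match. These were E2F (TTTNGCGC, 1.38%), Sp1 (GGGCGG, 35.7%), NF-Y (CCAAT, 37.4%), CRE (TGACGTCA, 1.79%), E-box (CACGTG, 7.15%), FoxO (TGTTTAC, 3.65%), TCF/LEF (ATCAAAG, 3.73%) and STAT (TTCNNNGAA, 8.3%). The *Cdkn2b* promoter held a CRE match from -46 to -39 and an Sp1 match from 4 to 9, counted from the start site. The upstream *Cdkn2a* promoter held 3 Sp1 matches and no other. The downstream one held an E2F match from -244 to -237, an NF-Y match on the minus strand of the window from 20 to 24 and an Sp1 match from 23 to 28, which overlap. Of the 10 promoters of 7 members in the table, the CRE match was found in that of *Cdkn2b* and the E2F match in that of *Cdkn2a*, and in no other. *Ccnd1*, *Ccnd2* and *Ccne2* had no entry among these RefSeq promoters and were not searched. A match describes the letters of the window and was not tested as a site of binding.

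*Cdkn2b* had 71, 47 and 58 normalised counts in GS replicates 1, 2 and 3, 47, 60 and 57 in DM, and 79, 263 and 166 in NO. The GS and DM samples overlapped and all NO samples were higher, although NO replicate 1, at 79, was close to the highest GS sample. *Cdkn2b* rose 2.59-fold in NO vs GS (log2 fold change 1.37 ± 0.37, adjusted p = 0.0241) and 2.75-fold in NO vs DM (1.46 ± 0.37, adjusted p = 0.0254). Without NO replicate 2 the log2 fold change was 0.97 vs GS (adjusted p = 0.0728) and 1.06 vs DM (adjusted p = 0.0753). The call vs GS was also lost without GS replicate 2 or 3 or NO replicate 3, and that vs DM without any one DM replicate or NO replicate 3. The adjusted p over the alternatives ran from 0.000989 to 0.0909 vs GS and from 0.00107 to 0.083 vs DM, and the fold change was above 0 in all of them. The sums of the two-cell-like and trophoblast markers were also lowest in NO replicate 1 and highest in NO replicate 2 among the NO samples. So were those of endothelium (3502, 5356 and 4054 in NO replicates 1, 2 and 3) and mesoderm (244, 278 and 269). The sums of pluripotency, fibroblast, neuroectoderm and primitive endoderm markers were not. Of the primitive endoderm list, *Gata4*, *Gata6* and *Sox17* had this order, and *Lama1*, most of that sum, did not. The part of these cell types in the rise was not tested.

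*Cdkn2a*, whose promoters are shown beside that of *Cdkn2b*, had 395, 258 and 298 normalised counts in GS replicates 1, 2 and 3, 238, 350 and 586 in DM, and 253, 226 and 354 in NO. The media overlapped throughout, and the log2 fold change was 0.23 in DM vs GS (95% confidence interval -0.43 to 0.89), -0.19 in NO vs GS (-0.85 to 0.46) and -0.42 in NO vs DM (-1.08 to 0.24). The ratio of *Cdkn2a* to *Cdkn2b* per kb was 6.60, 6.51 and 6.09 in GS replicates 1, 2 and 3, 6.01, 6.92 and 12.2 in DM, and 3.80, 1.02 and 2.53 in NO. All NO ratios lay under all others, and the highest came from DM replicate 3, but the difference between the genes in their response was not tested. *Cdkn2a* has the highest GC content of the 10 (60.2%), and its SD in DM went from 0.65 to 0.47 log2 units after the GC correction. Of the genes listed as flanking the pair, *Mtap*, a methionine salvage enzyme, was lower in NO than in GS (log2 fold change -0.89, adjusted p = 0.00811, and -0.64 without NO replicate 2) and than in DM (-0.64, adjusted p = 0.0448, and -0.39 with adjusted p = 0.093 without NO replicate 2, in a fit that also lost the call without 7 of the 8 other libraries).

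*Cdkn2c*, for p18, lies on chr4:109660876-109667189, minus strand, and *Cdkn2d*, for p19, on chr9:21288410-21291407, minus strand. *Cdkn2c* had 50, 49 and 53 normalised counts in GS replicates 1, 2 and 3, 37, 32 and 46 in DM, and 34, 47 and 61 in NO. DM lay under GS in all samples, and NO overlapped both. The log2 fold change in DM vs GS was -0.41, with an interval from -1.03 to 0.21 (adjusted p = 0.469), and those of NO vs GS and NO vs DM were -0.13 and 0.27. *Cdkn2d* had 262, 224 and 165 in GS, 165, 204 and 370 in DM, and 184, 226 and 286 in NO, which overlapped in every comparison. Its log2 fold changes were 0.12, 0.10 and -0.02 in DM vs GS, NO vs GS and NO vs DM, with intervals from -0.53 to 0.77, -0.55 to 0.74 and -0.67 to 0.62. The highest *Cdkn2d* sample was again DM replicate 3, and the SD in DM went from 0.60 to 0.47 log2 units with the GC correction.

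**Figure D3:**
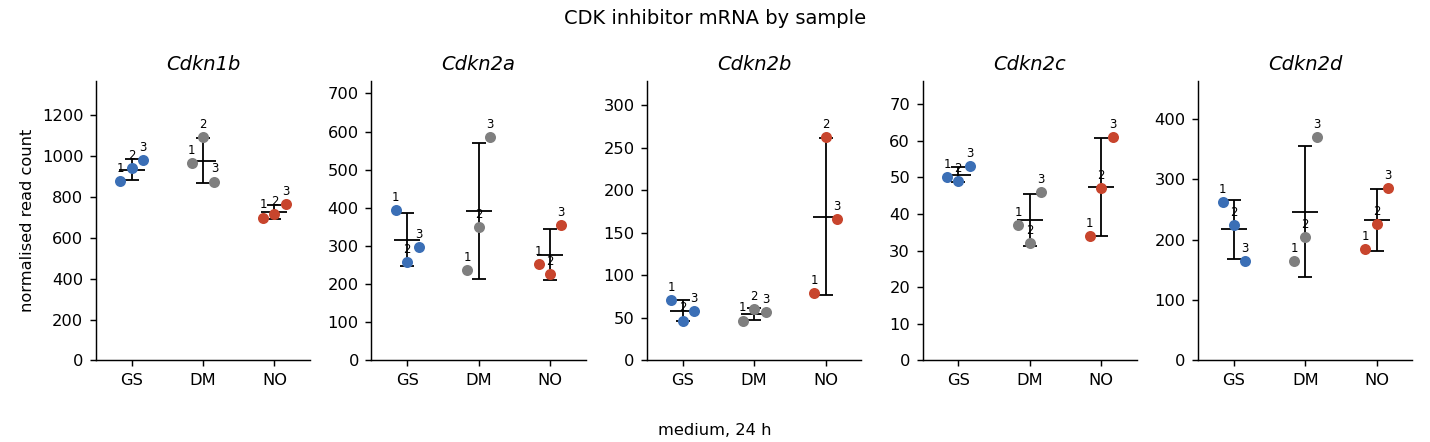
Normalised read count (y axis, linear from 0) of the CDK inhibitor genes in each medium (x axis); points are single samples with their replicate number, and bars give the mean ± SD of 3. *Cdkn2b* reaches 79, 263 and 166 in NO, while *Cdkn2a* and *Cdkn2d* overlap between media and are highest in DM replicate 3.

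The share of *Cdkn2b* in the INK4 sum per kb was 8.91, 8.16 and 9.92% in GS replicates 1, 2 and 3, 9.51, 8.93 and 5.17% in DM, and 14.1, 34.8 and 19.1% in NO. All NO shares lay above all others. The INK4 sum itself overlapped between media, with means per kb (± SD, n = 3) of 469.4 ± 89.9 in GS, 544 ± 225 in DM and 523.8 ± 113 in NO. *Cdkn2a* was its largest part in every sample, though in NO replicate 2 its share of 35.5% was close to that of *Cdkn2b*.

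**Figure D4:**
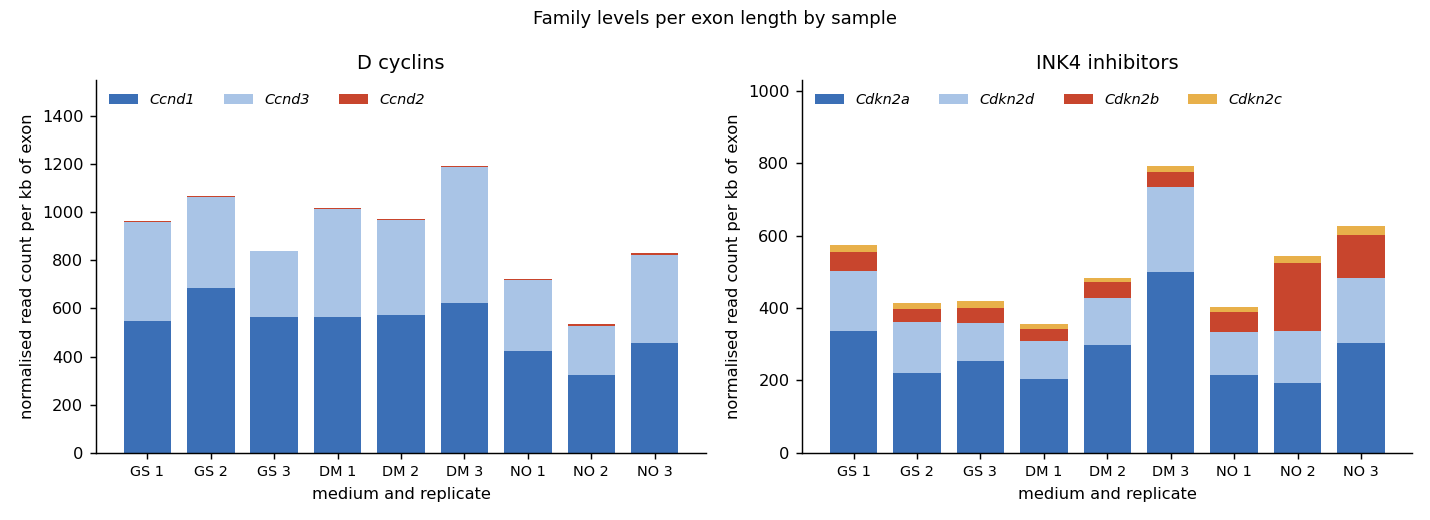
Normalised read count per kb of exon (y axis, linear from 0) of the D cyclins and of the INK4 genes, stacked, in each of the 9 samples (x axis). With lengths over all annotated exons, the D cyclin sum is 537 to 831 in NO and 840 to 1194 in the other samples. Over the longest transcripts the sums of NO and GS overlap. *Cdkn2b* makes up 14.1 to 34.8% of the INK4 sum in NO against 5.17 to 9.92% in GS and DM.

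Profiles most like those of the called members were sought among 11309 genes with a mean over 50, leaving out the 10 genes and those with only a clone or gene-model name, by the root mean square difference of centred log2 values over the 9 samples. Closest to *Ccnd1* were *Pfas* and *Tfap4*, both at 0.09, and closest to *Ccnd2* were *Efr3b* (0.09) and *Arhgef10* (0.11). *Ccne1* was closest to *Morc1* (0.11) and *Socs2* (0.12). *Cdkn2b* was followed least closely, by *Acaa1b* (0.16) and *Lgals4* (0.17). The NO samples of *Acaa1b* were at 58, 207 and 123 for replicates 1, 2 and 3, and those of GS and DM at 28 to 44.

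The partners of these genes in G1 were taken from lists of names. Among the kinases, with *Cdk2*, *Cdk4*, *Cdk6* and the CDK-activating kinase (*Cdk7*, *Ccnh*, *Mnat1*), 0 of 6 passed the limma test in any comparison, and 0 of 6 reached an unadjusted p under 0.05. The log2 fold change in NO vs DM was -0.31 for *Cdk2*, -0.27 for *Cdk4* and -0.27 for *Cdk6*, with adjusted p-values of 0.25, 0.301 and 0.327. Likewise 0 of 14 genes of S-phase entry, such as *Ccna2*, *Pcna* and the *Mcm* genes of the replicative helicase, passed in any comparison. At an unadjusted p under 0.05 they numbered 0, 0 and 2 in DM vs GS, NO vs GS and NO vs DM, beside 19.9%, 34.6% and 31.3% of all tested genes. By the adjusted threshold, 4.37% of all tested genes were higher and 2.32% lower in DM vs GS. These shares were 13.4% and 6.64% in NO vs GS, and 9.01% and 5.24% in NO vs DM. The same shares stand beside the counts of the kinases.

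Of the pocket proteins, *Rb1*, the retinoblastoma gene, had 103, 99 and 119 normalised counts in GS replicates 1, 2 and 3, 91, 104 and 102 in DM, and 294, 1047 and 437 in NO. It rose by 2.25 ± 0.36 on the log2 scale vs GS (adjusted p = 0.00182) and by 2.36 ± 0.36 vs DM (adjusted p = 0.00336), and was called in all 22 alternatives of each. Without NO replicate 2 these values were 1.74 and 1.85. Among the NO samples it was lowest in replicate 1 and highest in replicate 2. The two-cell-like, trophoblast, endothelium and mesoderm marker sums had the same order, and their part in the rise was not tested. *Rbl2*, for p130, rose by 1.11 vs GS (adjusted p = 0.00481) and by 0.90 vs DM (adjusted p = 0.02, and 0.0611 to 0.0633 without DM replicate 1 or 3), and these values were 0.86 and 0.65 without NO replicate 2. *Rbl1*, for p107, was not called, so that 2 of 3 pocket proteins were higher in each NO comparison, beside 13.4% (vs GS) and 9.01% (vs DM) of all tested genes, and 0 of 3 were called in DM vs GS, where 4.37% were higher.

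Of the other Cip/Kip inhibitors, *Cdkn1a*, for p21, had 3839, 3758 and 3288 normalised counts in GS replicates 1, 2 and 3, 1462, 1487 and 1976 in DM, and 2535, 4859 and 3663 in NO. It fell in DM vs GS (log2 fold change -1.15 ± 0.21, adjusted p = 0.0071) and rose in NO vs DM (1.13 ± 0.21, adjusted p = 0.00801, and 0.91 with adjusted p = 0.0138 without NO replicate 2). Both calls held in all 22 alternatives, while NO vs GS was -0.02 ± 0.21. *Cdkn1c*, for p57, rose in NO vs GS (1.85 ± 0.37, adjusted p = 0.00576, and 1.47 without NO replicate 2), with 43 to 69 normalised counts in GS and 111 to 360 in NO. Its values in DM, 135 to 182, gave 1.35 ± 0.37 vs GS (adjusted p = 0.0514), which passed without NO replicate 1 or 2 (adjusted p = 0.00683 and 0.0136).

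Of 10 E2F and DP factors, 2 were higher and 0 lower in DM vs GS, beside 4.37% and 2.32% of all tested genes. In NO vs GS 0 were higher and 1 lower, beside 13.4% and 6.64%. In NO vs DM 0 were higher and 3 lower, beside 9.01% and 5.24%. With the replicate block, under which NO and DM samples of the same number are paired, 2 of these 3 were lower, since *E2f4* did not pass (adjusted p = 0.0591). *E2f8*, a repressor of the family, rose by 0.80 in DM vs GS (adjusted p = 0.00923) and fell by 0.82 on the log2 scale in NO vs DM (adjusted p = 0.00797), in all 22 alternatives of each, and NO vs DM was -0.71 without NO replicate 2. *E2f2*, an activator, rose by 0.83 in DM vs GS (adjusted p = 0.00728) and fell by 0.62 in NO vs DM (adjusted p = 0.0239, lost without any one DM replicate or NO replicate 2 or 3, with adjusted p up to 0.0817). *E2f4* fell by 0.54 in NO vs DM (adjusted p = 0.0431, lost in 8 of 9 fits without 1 library, all but that without NO replicate 1, with adjusted p up to 0.129), and *E2f3* by 0.57 in NO vs GS (adjusted p = 0.0192, lost without GS replicate 2 or 3 or NO replicate 2 or 3, up to 0.0747). *E2f2* and *E2f8* were near their GS level in NO, with log2 fold changes of 0.21 and -0.02 in NO vs GS.

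The regulators of stability and of the INK4 locus showed few calls. Among 9 tested parts of ubiquitin ligases that act on G1 cyclins or p27, 0 were called in either comparison with GS, although 0 (DM) and 7 (NO) had an unadjusted p under 0.05, which 19.9% and 34.6% of all tested genes had. In NO vs DM, *Fbxw7*, which marks cyclin E for degradation, was higher (0.86, adjusted p = 0.0491) and *Fbxo31* was lower (-0.59, adjusted p = 0.0419). Of all tested genes, 9.01% were higher and 5.24% lower in that comparison. Each call was lost in 8 of 9 fits without 1 library, all but that without NO replicate 1, with adjusted p-values up to 0.141 and 0.127. *Fbxo31* was also lost with the replicate block (adjusted p = 0.0543). Of 9 Polycomb repressors, *Cbx8* and *Bmi1* were lower in DM vs GS (-1.64, adjusted p = 0.011, and -0.91, adjusted p = 0.0437), and *Cbx8* and *Suz12* were higher in NO vs DM (1.20, adjusted p = 0.0317, and 0.56, adjusted p = 0.0378). Beside these, 2.32% of all tested genes were lower in DM vs GS and 9.01% were higher in NO vs DM. *Cbx8* in DM vs GS was lost without GS replicate 2 (adjusted p = 0.0621), *Bmi1* in 5 of 9 such fits (GS replicates 2 and 3, DM replicates 1 and 3, NO replicate 3), *Cbx8* in NO vs DM in 5 (each DM replicate, NO replicates 2 and 3) and *Suz12* in 7 (all but GS replicate 3 and NO replicate 1), with adjusted p-values up to 0.194, 0.102 and 0.11. With the replicate block *Suz12* in NO vs DM (adjusted p = 0.0513) and *Bmi1* in DM vs GS (adjusted p = 0.062) were lost as well. None of the 9 was called in NO vs GS, where 3 had an unadjusted p under 0.05, beside 34.6% of all tested genes. Of the 4 FoxO factors, known activators of *Cdkn1b*, *Foxo4* rose by 0.71 in DM vs GS (adjusted p = 0.0112, and 0.0526 to 0.0537 without GS replicate 2 or 3) and fell by 0.79 in NO vs DM (adjusted p = 0.00663, called in all 22 alternatives, and -0.67 without NO replicate 2). That made 1 of 4 higher in DM vs GS, beside 4.37% of all tested genes, and 1 of 4 lower in NO vs DM, beside 5.24%. In NO vs GS 0 of 4 were called, where 13.4% of all tested genes were higher and 6.64% lower.

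**Figure D5:**
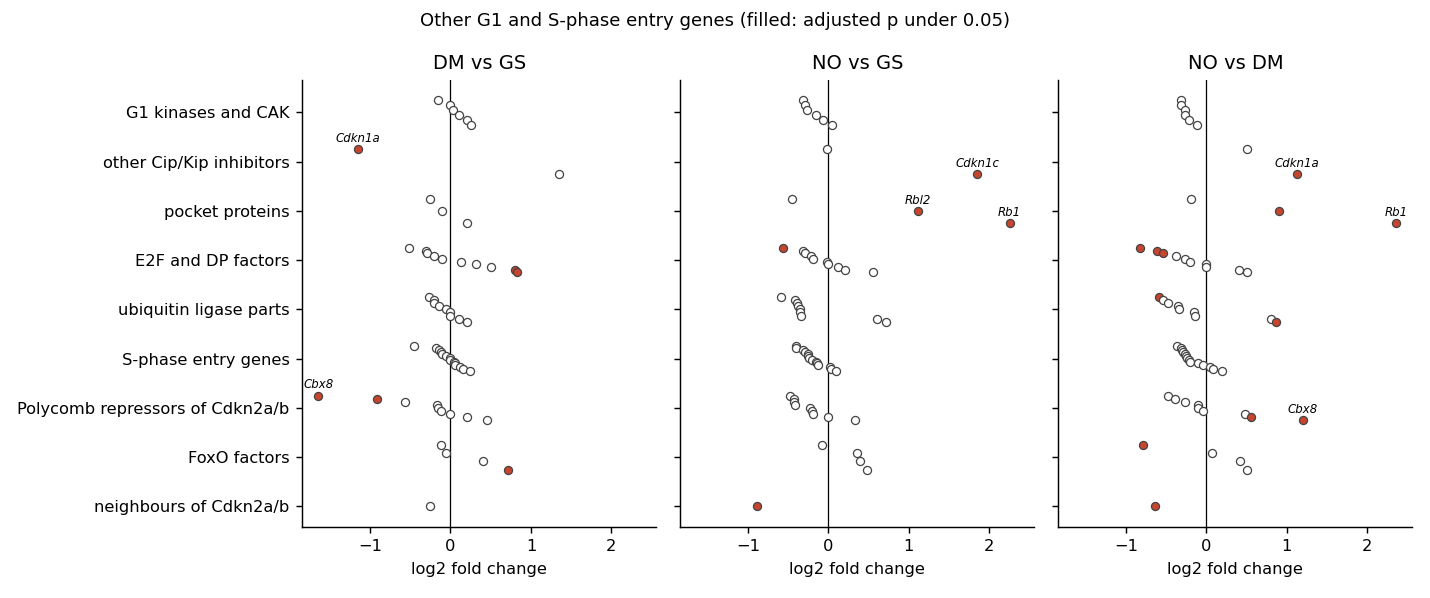
Log2 fold change (x axis) of each tested gene in the lists of G1 and S-phase entry genes (rows) in DM vs GS, NO vs GS and NO vs DM (panels); filled points have an adjusted p-value under 0.05 by limma, and called genes past a 2-fold change are named. *Rb1* stands farthest to the right in both NO comparisons, at 2.25 and 2.36, and no point of the kinases or of the S-phase entry genes is filled.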

How the data were processed

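Total RNA of 9 samples, 3 per medium, was analysed. By the study's methods, libraries depleted of ribosomal RNA were run on an Ion Torrent Proton, and the authors aligned the reads to GRCm38 with STAR and counted them over exons with featureCounts, leaving out reads shared between genes or positions. The processing notes name STAR 2.4.0a and featureCounts 1.4.5-p1. Use of the strand was not stated. The values deposited by the authors are a normalised score, a read count divided by a DESeq2 size factor and rounded to whole numbers. They are not raw counts, so no count model was run. Size factors recomputed from them were 1.0038 to 1.0083. A column with the sum over samples was not used. Reads per sample were estimated from the spacing of low values.

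Genes with a mean over 5 were analysed as log2(value + 1) with limma 3.58.1 in R 4.3.3, with all 9 samples in 1 fit, a mean-variance trend, two-sided tests and Benjamini-Hochberg adjustment over 18156 genes. The samples are labelled as replicates, and p-values measure only the spread between them, which may be technical. Exons, lengths and overlaps came from GENCODE M21. All 10 members are named, with other pathway genes of listed names that had an adjusted p-value under 0.05, at most 3 per list and comparison by size of change. Members, lists and most tests were chosen with earlier results of these data known. Alternatives were other fits, pseudocounts, minimum means, scalings and single replicates left out, and the GC correction (lowess, span 0.3, 98.9% of tested genes), alone and with the replicate block, was chosen after seeing the data. Deviations of same-numbered samples from their medium correlated over the tested genes by 0.16, 0.17 and 0.3 between NO and DM. The correlations were -0.23 to 0.02 in DM vs GS and -0.11 to 0.05 in NO vs GS. The main fit did not pair samples, and same-numbered samples entered as blocks only in the replicate-block alternatives.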

Additional observations from a re-analysis of the deposited data

How the results depend on the processing

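Calls of the 10 genes depended on how the spread between 3 samples per medium was estimated, on the scaling and on single replicates, and the cause was not tested. In DM vs GS, where 0 were called, 2 were called with only the 6 samples compared, 1 without the mean-variance trend and 1 with the GC correction, and leaving out 1 replicate gave 0 to 2 (2 without NO replicate 2). In NO vs GS, with 3 called, the number was 1 without the trend and 1 after quantile normalisation, and 1 to 3 with 1 replicate left out (1 without GS replicate 2 or NO replicate 2). In NO vs DM, with 3 called, it was 0 with only the 6 samples compared, 0 without the trend, 1 after scaling to equal totals with or without the top 1% of genes, 1 after quantile normalisation, 1 when a 2-fold change was required, and 5 with the GC correction, alone or with the replicate block (*Ccnd3* and *Cdkn1b* added), and 0 to 3 with 1 replicate left out (0 without DM replicate 1 or 2 or NO replicate 2, 1 without DM replicate 3). In NO vs DM it was also 4 with a minimum mean of 50 or a pseudocount of 5, and 2 with no minimum mean. With the replicate block alone the number stayed 0, 3 and 3, and no call of the 10 genes changed. Calls over all 18156 tested genes moved as well. In DM vs GS they went from 794 higher and 421 lower to 1112 and 629 with only the 6 samples compared. In NO vs DM they went from 1636 and 951 to 798 and 309 in such a fit, and 1055 and 409 without the trend. The GC correction gave 1920 and 1434 there, and scaling to equal totals 2043 and 607. Of 657 values of single genes under the alternatives, 576 kept their side of the threshold and direction, 40 lost and 14 gained a call, and 27 turned direction, none of them called. Turned values were, for *Ccnd1* in DM vs GS, 0.01 after quantile normalisation and 0.00 with equal totals (-0.08 to 0.08 with 1 replicate left out), for *Cdkn2a* in DM vs GS -0.02 with the GC correction, with or without the block (-0.11 to 0.54), for *Cdkn2c* in NO vs DM -0.06 after quantile normalisation, and for *Cdkn2d* with the GC correction, with or without the block, -0.03 for DM vs GS and -0.06 for NO vs GS, -0.12 in NO vs GS after quantile normalisation, and 0.06 and 0.03 in NO vs DM with equal totals, with and without the top 1% of genes. With 1 replicate left out the ranges that crossed 0 were -0.51 to 0.06 (*Ccne1*) and -0.33 to 0.08 (*Cdkn2c*) in NO vs GS, -0.01 to 0.55 for *Ccne2* in NO vs DM, -0.02 to 0.14 (*Cdkn1b*) and -0.24 to 0.06 (*Cdkn2b*) in DM vs GS, and for *Cdkn2d* -0.22 to 0.36, -0.09 to 0.25 and -0.27 to 0.31 in DM vs GS, NO vs GS and NO vs DM. The ratio of *Ccnd3* to *Ccnd1* became 1.08, 1.44 and 1.29 with the longest transcript. Quantile normalisation moved the median of all genes to -0.11 in NO vs GS. *Cdkn2c* had a mean under 50 and no value at that minimum. Genes with few reads, *Ccnd2* and *Cdkn2c* above all, are limited by counting error as well as by replicates.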
